A study of Mus musculus with 41 samples.

Results

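The genes described here are 9 regulators of mitosis, chosen by name from the 17097 genes measured: the kinase genes Aurka, Aurkb, Plk1 and Bub1, the anaphase activator Cdc20, the topoisomerase Top2a, the proliferation marker Mki67, the spindle pole gene Aspm and the cytokinesis gene Anln. The choice was made with earlier results of these data known. All 9 were measured, by 16 probe sets, and the main value of a gene came from whichever of its probe sets had the highest overall mean. RNA of epidermal stem cells from wild type female C57B6/J mice was hybridised to 41 arrays, 20 for the control diet and 21 for the high fat diet. The mice were 15 weeks old and had eaten their diet freely for 7 weeks, from 8 weeks of age. They were sampled at 6 times of day 4 h apart, given as zeitgeber time (ZT, hours after lights on). In order from ZT0 to ZT20, the arrays per time point numbered 4, 3, 2, 3, 4 and 4 for control and 3, 4, 2, 4, 4 and 4 for high fat. All mice killed on a day belonged to 1 time point, so time point and collection day cannot be told apart. Nothing in the labels says that each array is a separate mouse, and p-values therefore measure the spread between arrays.

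Mitosis is driven by kinases that switch on in turn. Aurora A (Aurka) and Polo-like kinase 1 (Plk1) mature the centrosomes and build the spindle poles, Aurora B (Aurkb) corrects faulty attachments of chromosomes to the spindle, and Bub1 sits at kinetochores as part of the checkpoint that holds back anaphase. Cdc20 ends that hold by activating the anaphase-promoting complex. In cycling cells transcripts of this group accumulate in G2 and mitosis and fall when cells leave the cycle, so that in a tissue their summed level follows the number of dividing cells. In bulk RNA, as here, fewer dividing cells and less RNA per dividing cell cannot be told apart. The epidermis is renewed by division of basal cells, and the timing of that division over the day is a known feature of mouse skin.

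Many promoters of this group carry the letters TTTGAA, the core of the cell cycle genes homology region, bound by a complex that represses these genes in resting cells. Many also carry CCAAT, bound by the activator NF-Y. Both were searched on either strand (the other strand reads TTCAAA and ATTGG) in the RefSeq promoter table, build GRCm38.p6, from 250 bases before to 50 after each start. The table held 8 of the 9 genes, all but Aurkb. TTTGAA was found in 7 of the 8 and in 17.9% of all 32851 promoters in the table. CCAAT was also found in 7 of the 8 and in 37.4% of all, and both together in 6 of the 8 and in 6.95% of all. TTTGAA was not in the Bub1 window and CCAAT was not in the Anln window. In Aurka, Plk1, Aspm and Anln the TTTGAA matches lay after the start, and in Cdc20, Top2a and Mki67 before it. The stretches below show, for these last 3 genes and for Bub1, how the motifs are spaced, with TTTGAA and CCAAT on either strand in capitals, 5′ to 3′ on the strand of the gene. The matches shown do not overlap each other. A match is a description of the letters and no evidence of binding.
Top2a, chr11:99024200-99024419, minus strand, bases -230 to -11 from the start: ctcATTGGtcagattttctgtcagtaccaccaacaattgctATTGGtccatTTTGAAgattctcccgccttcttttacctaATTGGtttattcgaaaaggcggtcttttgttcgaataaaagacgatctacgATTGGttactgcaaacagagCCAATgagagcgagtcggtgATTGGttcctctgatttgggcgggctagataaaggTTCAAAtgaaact
Mki67, chr7:135716470-135716569, minus strand, bases -190 to -91 from the start: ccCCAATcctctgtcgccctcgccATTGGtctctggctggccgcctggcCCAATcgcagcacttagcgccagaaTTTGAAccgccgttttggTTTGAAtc
Cdc20, chr4:118437344-118437403, minus strand, bases -60 to -1 from the start: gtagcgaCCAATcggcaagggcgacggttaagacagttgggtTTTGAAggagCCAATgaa
Bub1, chr2:127831860-127831929, minus strand, bases -70 to -1 from the start: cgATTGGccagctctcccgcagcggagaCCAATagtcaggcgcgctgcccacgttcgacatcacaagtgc
The Top2a stretch held 6 CCAAT and 2 TTTGAA, the Mki67 stretch 3 and 2, and the Cdc20 stretch 2 and 1. The Bub1 stretch held 2 CCAAT.

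The first question was how the genes ran over the day in each diet. On the log2 scale of the deposited values, 8 of the 9 genes on the control diet and all 9 on the high fat diet had their highest mean at ZT0, around lights on. The exception was Anln on the control diet, highest at ZT20 (7.56 ± 0.27, SD, n = 4), just above ZT0 (7.52). The lowest mean was at ZT8 for 6 genes on the control diet and for 8 on the high fat diet. A difference between time points of any shape passed the threshold (limma F test, adjusted p under 0.05 over all genes) for 9 of 9 genes on the control diet, where 43.9% of all genes passed, and for 8 of 9 on the high fat diet, where 41.5% passed. Plk1 was the gene that did not pass on the high fat diet (adjusted p = 0.210). In each of the 18 pairs of gene and diet the arrays of the highest group lay above those of the lowest, groups that were picked by their means. Picking groups this way favours a gap for any gene, and no share over all genes is given beside this count.

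**Figure D1:**
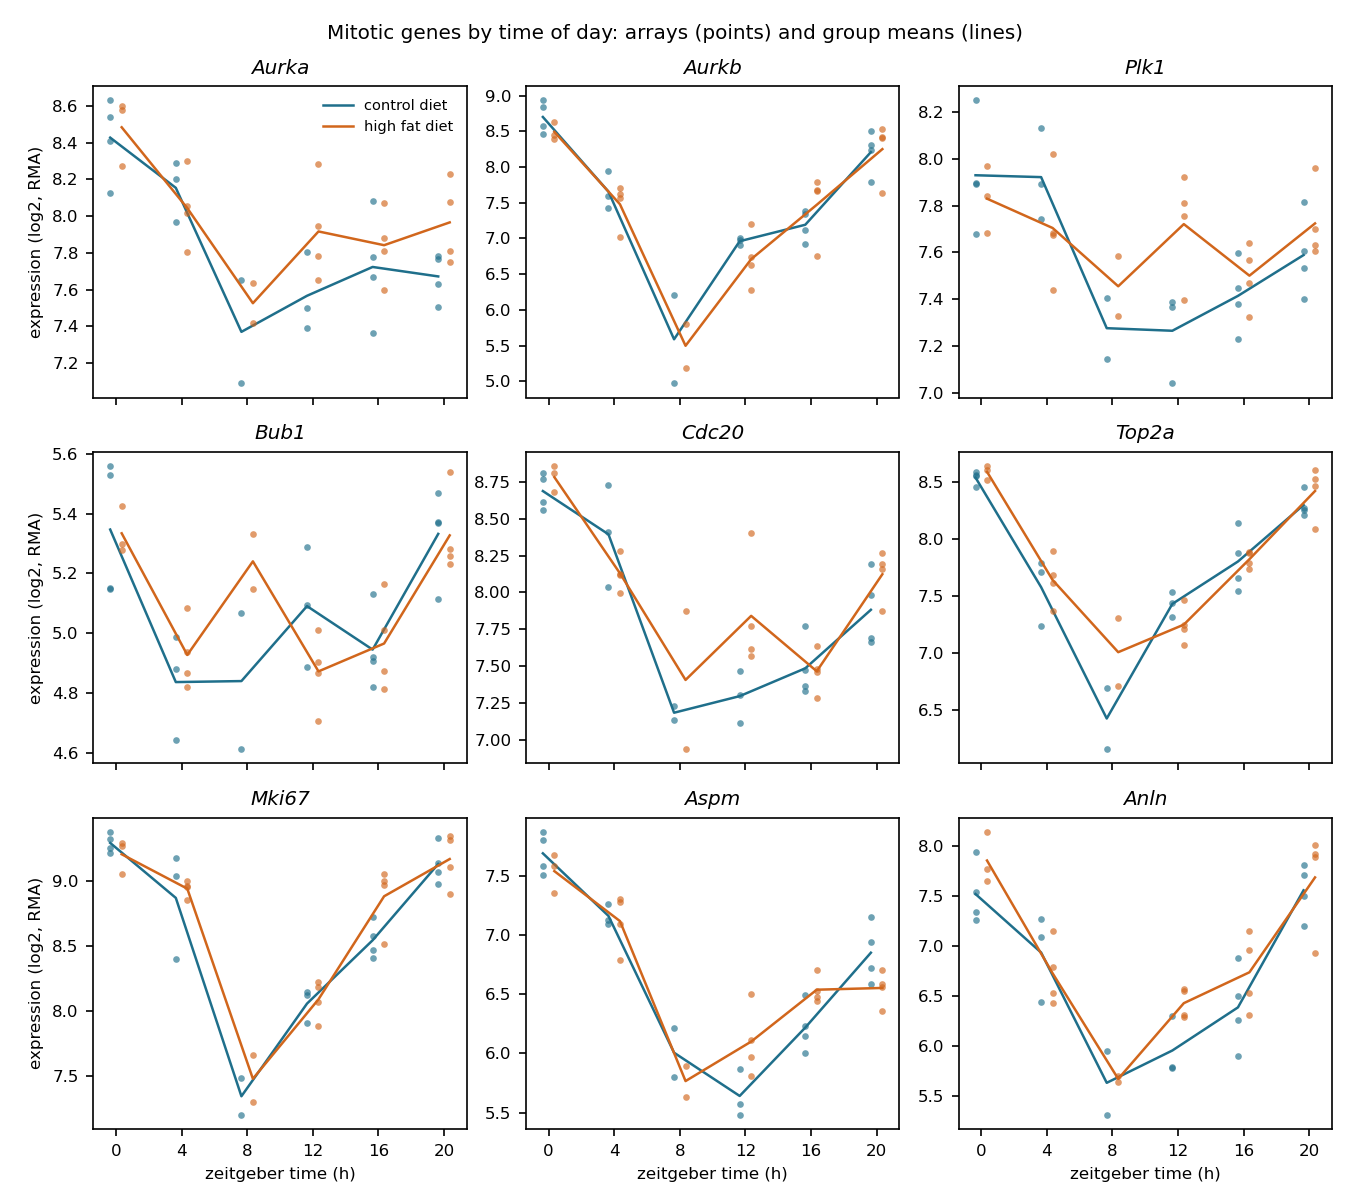
Expression (log2, RMA) of the 9 genes against zeitgeber time, with points for single arrays and lines through the group means, blue for the control diet and orange for the high fat diet. Each panel has its own vertical scale. Aurkb, Top2a, Mki67 and Anln run from a high at ZT20 to ZT0 to a low at ZT8 in both diets, and Aspm from a high at ZT0 to a low at ZT12 (control) or ZT8 (high fat), while Plk1 on the high fat diet and Bub1 show shallower courses.

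Aurkb, the catalytic subunit of the chromosomal passenger complex, had the widest range of the 9 on the main probe sets. On the control diet its arrays read 8.46, 8.94, 8.84 and 8.57 at ZT0 and 7.94, 7.42 and 7.60 at ZT4. They read 6.21 and 4.97 at ZT8, 6.98, 6.91 and 7.00 at ZT12, 7.12, 7.39, 6.92 and 7.34 at ZT16, and 8.50, 7.79, 8.23 and 8.31 at ZT20. The arrays of ZT8 were all below those of the other times, and the arrays of ZT0 overlapped those of ZT20 alone. From the lowest to the highest group mean this was an 8.64-fold range. The high fat arrays read 8.45, 8.40 and 8.63 at ZT0, 5.80 and 5.19 at ZT8, and 7.20, 6.63, 6.74 and 6.27 at ZT12, a range of 7.96-fold between ZT8 and ZT0. The 24 h cosine had an amplitude (mean to peak, log2) of 1.18 ± 0.16 (SE) on the control diet and 1.19 ± 0.16 on the high fat diet. The other probe set of Aurkb gave smaller amplitudes of 0.76 and 0.83. On it the control arrays lay closer together, at 8.26, 8.54, 8.75 and 8.16 at ZT0 and 6.82 and 6.17 at ZT8.

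Aurka, the centrosomal Aurora kinase, ran over a narrower range. Its control arrays read 8.13, 8.41, 8.63 and 8.54 at ZT0 and 8.29, 7.97 and 8.20 at ZT4, against 7.65 and 7.09 at ZT8 and 7.39, 7.81 and 7.50 at ZT12. The arrays of ZT0 lay above all those of ZT8 and ZT12. The high fat arrays read 8.58, 8.27 and 8.60 at ZT0 and 7.42 and 7.63 at ZT8, again without overlap. The lowest to highest range was 2.08-fold and 1.94-fold in the 2 diets. The cosine amplitude was 0.40 ± 0.09 (adjusted p = 0.0113) on the control diet and 0.25 ± 0.09 (adjusted p = 0.126, limma) on the high fat diet, where single arrays of ZT12 (8.28) and ZT20 (8.23) also read high.

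Plk1, the Polo kinase of mitotic entry and spindle assembly, was high at ZT0 (7.68, 8.25, 7.89 and 7.90) and ZT4 (8.13, 7.74 and 7.89) on the control diet. It was low at ZT8 (7.41 and 7.15) and ZT12 (7.04, 7.39 and 7.37), a range of 1.59-fold. On the high fat diet the 3 arrays of ZT0 read 7.68, 7.84 and 7.97 and the arrays of ZT8 7.58 and 7.33, a range of 1.30-fold. The cosine amplitude was 0.35 ± 0.06 (adjusted p = 0.00104) on the control diet and 0.10 ± 0.06 (adjusted p = 0.512, limma) on the high fat diet. The difference between the diets was itself not past the threshold (adjusted p = 0.177).

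Bub1, the kinetochore checkpoint kinase, was the 1 gene of the 9 left out by a filter on the dimmest 25% of genes. Its control arrays read 5.15, 5.53, 5.56 and 5.15 at ZT0 and 5.47, 5.12, 5.37 and 5.37 at ZT20, against 4.88, 4.64 and 4.99 at ZT4. With high fat feeding the ZT12 arrays (5.01, 4.87, 4.71 and 4.91) were low and the ZT8 arrays (5.15 and 5.33) were not. Its course differed between time points in both diets (adjusted p = 0.00105 and 0.00213), while the 24 h cosine passed in neither (adjusted p = 0.0679 and 0.0956). Its ranges were 1.42-fold and 1.38-fold. A second probe set of Bub1 had cosine amplitudes of 0.07 and 0.06 (limma, adjusted p = 0.239 and 0.325). On it the control arrays read 4.90, 4.80, 4.84 and 4.91 at ZT16 and 4.78, 4.90, 4.87 and 4.81 at ZT20, so ZT20 was not high. A difference between time points passed on this probe set in both diets (limma F test, adjusted p = 0.000852 and 0.0169).

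Cdc20, the activator of the anaphase-promoting complex, read 8.56, 8.77, 8.81 and 8.61 at ZT0 on the control diet and 7.13 and 7.23 at ZT8, a 2.84-fold range. With high fat feeding it read 8.68, 8.86 and 8.81 at ZT0, and 7.88 and 6.94 at ZT8, so the ZT8 arrays differed widely from each other. The range was 2.60-fold, and the amplitudes were 0.72 ± 0.10 and 0.49 ± 0.10.

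Top2a, which untangles replicated DNA, had close replicates at ZT0: 8.46, 8.59, 8.56 and 8.55 on the control diet and 8.52, 8.64 and 8.61 on the high fat diet. At ZT8 it read 6.69 and 6.15, and 7.30 and 6.71. The fold between these groups was 4.34 and 3.00, and the amplitudes were 0.83 ± 0.09 and 0.78 ± 0.09. Its other 2 probe sets had amplitudes of at most 0.05 and did not pass, and with the mean of the probe sets the amplitudes were 0.28 and 0.25.

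Mki67, the gene of the Ki-67 antigen, read 9.22, 9.25, 9.32 and 9.38 at ZT0 on the control diet, and 7.49 and 7.20 at ZT8. With high fat feeding it read 9.05, 9.27 and 9.29 at ZT0 and 7.66 and 7.30 at ZT8. The ranges were 3.85-fold and 3.30-fold and the amplitudes 0.81 ± 0.10 and 0.74 ± 0.10. In both diets the ZT8 arrays lay below the arrays of all other times.

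Anln, the actin-binding protein anillin of the cleavage furrow, read 7.50, 7.20, 7.81 and 7.72 at ZT20 and 5.95 and 5.31 at ZT8 on the control diet. With high fat feeding it read 7.77, 8.14 and 7.65 at ZT0 and 5.70 and 5.64 at ZT8, and the groups did not overlap in either diet. The ranges were 3.80-fold and 4.54-fold, and the amplitudes 1.00 ± 0.12 and 0.93 ± 0.12. A second probe set had amplitudes of 0.16 and 0.19 and passed in neither diet (limma, adjusted p = 0.187 and 0.0572). With the mean of the probe sets the amplitudes were 0.58 and 0.56.

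The 24 h cosine passed for 8 of the 9 genes on the control diet, where 6.66% of all genes passed, and for 6 of 9 on the high fat diet, where 11.2% passed. The median amplitude of the 9 genes was 0.81 and 0.64, against 0.07 and 0.08 over all genes. As the 9 were chosen with earlier results of these data known, these contrasts are a description and no independent support. Aurkb, Cdc20, Top2a, Mki67, Aspm and Anln passed in both diets. When each time point within a diet was a random block, standing in for collection day, 6 and 5 of the 9 genes passed, against 0.801% and 0.386% of all genes. The calls lost were Aurka and Plk1 on the control diet (adjusted p = 0.298 and 0.160, limma) and Cdc20 on the high fat diet (0.181).

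The fitted peaks ran from ZT21.1 to ZT0.85 on the control diet and from ZT21.6 to ZT0.28 on the high fat diet. Among the genes that passed in both diets Top2a peaked first, at ZT21.3 ± 0.38 (SE, h) and ZT21.6 ± 0.39 in the control and high fat diets. Mki67 (ZT22.2 ± 0.44 and ZT21.9 ± 0.46), Aurkb (ZT22.3 ± 0.50 and ZT21.7 ± 0.47) and Anln (ZT22.6 ± 0.45 and ZT21.7 ± 0.45) came next. The 4 latest peaks on the control diet were those of Aspm (ZT0.20 ± 0.39), Cdc20 (ZT0.60 ± 0.57), Aurka (ZT0.82 ± 0.90) and Plk1 (ZT0.85 ± 0.72), and the same 4 genes had the 4 latest peaks on the high fat diet. There Aspm stood at ZT0.14 ± 0.56, Cdc20 at ZT0.28 ± 0.79, and Aurka and Plk1, whose cosines did not pass, at ZT23.6 and ZT0.23. The order was not tested, and the genes share their arrays. The sampling every 4 h limits the resolution of a peak.

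**Figure D2:**
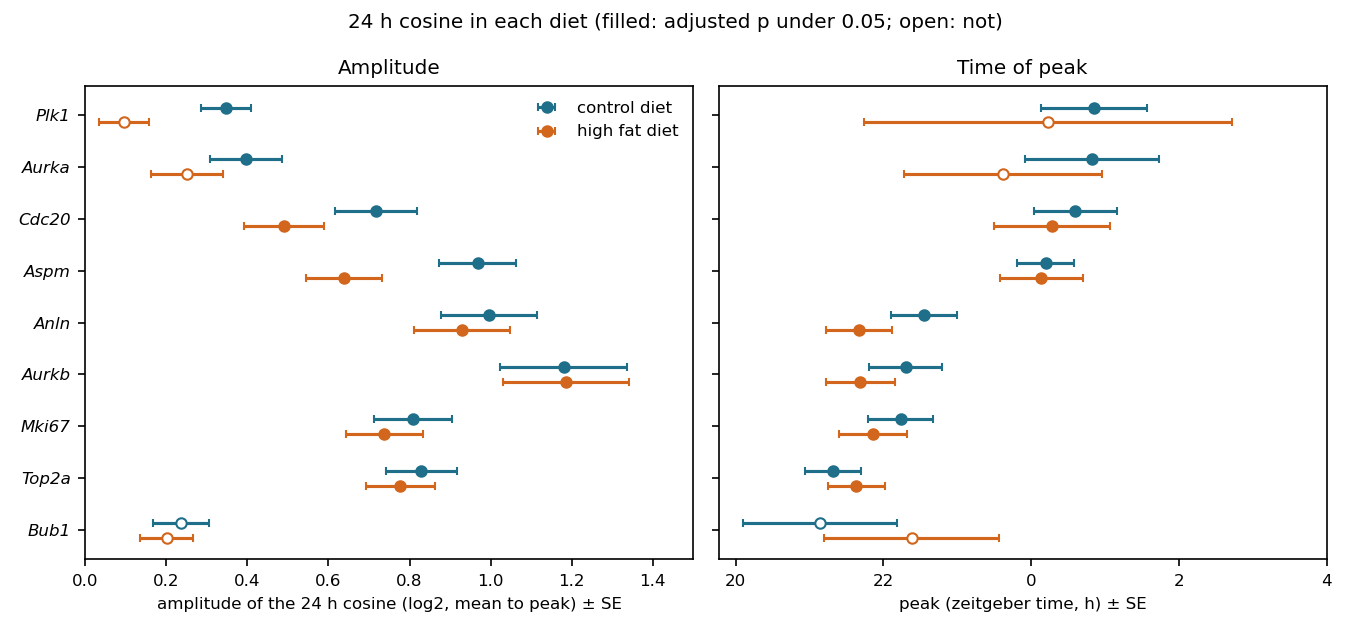
Amplitude (left, log2 units from the mean to the peak) and peak time (right, zeitgeber hours) of the 24 h cosine for each gene, with standard errors, in the control diet (blue) and the high fat diet (orange). Filled symbols have an adjusted p under 0.05. Plk1, Aurka, Cdc20 and Aspm peak after the other 5 genes on the control diet. On the main probe sets shown, Aurkb has the largest amplitude, 1.18 and 1.19.

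The steps between neighbouring time points showed when these levels moved. Of 54 steps per diet (9 genes, 6 steps), 26 passed on the control diet and 22 on the high fat diet, with 13 and 11 falls, all between ZT0 and ZT8, and 13 and 11 rises, all between ZT8 and ZT0. In the opposite direction 0 of 9 passed at each step (limma), where, in the order from the step ZT20 to ZT0 to the step ZT16 to ZT20, 6.63%, 6.59%, 10.9%, 9.28%, 0.953% and 3.21% of all genes passed on the control diet. The same shares were 2.99%, 3.42%, 3.96%, 3.12%, 16.4% and 1.73% on the high fat diet. On the control diet 5 genes fell from ZT0 to ZT4 (7.19% of all genes fell), namely Aurkb, Bub1, Top2a, Mki67 and Aspm. From ZT4 to ZT8 all but Bub1 fell, 8 of 9 against 15.7% of all genes, and Mki67 dropped by 1.52 ± 0.17 (SE, log2, adjusted p = 1.45e-07, limma). Aurkb, Top2a and Mki67 rose from ZT8 to ZT12 (3 of 9, 12.4% of all genes) and Aspm from ZT12 to ZT16 (1 of 9, 1.51%). From ZT16 to ZT20 there were 6 rises against 3.02% of all genes, in Aurkb, Bub1, Top2a, Mki67, Aspm and Anln, the last by 1.17 ± 0.24. From ZT20 to ZT0 the genes that rose were Aurka, Cdc20 and Aspm (3 of 9, 7.78%), by 0.76 ± 0.15, 0.81 ± 0.17 and 0.84 ± 0.14. For Aurka, Plk1 and Cdc20 no step from ZT8 to ZT20 passed on the control diet.

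On the high fat diet 5 genes fell from ZT0 to ZT4 (Aurkb, Bub1, Cdc20, Top2a and Anln, 5.81% of all genes) and 6 from ZT4 to ZT8 (Aurkb, Cdc20, Top2a, Mki67, Aspm and Anln, 3.91%). Aurkb and Mki67 rose from ZT8 to ZT12 (2 of 9, 7.42%). From ZT12 to ZT16 there were 4 rises, in Aurkb, Top2a, Mki67 and Aspm (7.81%), with Mki67 at 0.79 ± 0.13. Cdc20, Top2a and Anln rose from ZT16 to ZT20 (3 of 9, 1.46%) and Cdc20 and Aspm from ZT20 to ZT0 (2 of 9, 3.97%), Aspm by 0.99 ± 0.15. No step of Aurka or Plk1 passed on this diet. A step past the threshold in one diet and not in the other was not tested as a difference.

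The ZT8 groups hold 2 arrays each, and 3 of these 4 arrays stood apart in cell type markers. The mean of 7 basal keratinocyte markers, among them Krt5, Krt14 and Itga6, was 11.12 and 11.29 in the control ZT8 arrays and 11.13 in high fat ZT8 replicate 2. It lay between 11.68 and 11.93 on all other arrays, including high fat ZT8 replicate 1 at 11.74. The mean of 7 suprabasal markers was high in the same 3 arrays (10.81, 10.63 and 10.78) and 10.06 in high fat ZT8 replicate 1. In that replicate the mean of the 9 mitotic genes was 6.71, below every array of the other time points, where the lowest was 6.80. Gene by gene, Aurkb (5.80), Mki67 (7.66) and Anln (5.70) lay below every array of the other time points. Aurka (7.42), Plk1 (7.58), Bub1 (5.15), Cdc20 (7.88), Top2a (7.30) and Aspm (5.90) lay within the range of those arrays. This is 1 array, and the part of cell type in the ZT8 low was not tested. Without the ZT8 arrays the cosine passed for 8 genes on the control diet and 7 on the high fat diet. The number of steps on the control diet fell to 15, as steps into and out of ZT8 could no longer be counted.

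The group means of the basal markers lay between 11.20 and 11.90. The 7 suprabasal markers had group means of 9.94 to 10.72. Of the other lists, 2 erythroid markers had group means of 7.25 to 7.60, 6 fibroblast markers 5.61 to 5.78, 4 endothelial markers 5.64 to 5.72, 6 melanocyte markers 6.29 to 6.52 and 6 hair matrix markers 6.26 to 6.67. The 7 bulge markers lay at 7.87 to 8.44 and 8 leukocyte markers at 6.04 to 6.80. A cosine passed for 0 of the 7 basal, 6 fibroblast, 6 hair matrix and 4 endothelial markers in both diets. Suprabasal markers passed for 2 and 1 of 7, bulge markers for 2 and 5 of 7, leukocyte markers for 4 and 0 of 8 and melanocyte markers for 0 and 2 of 6. Over all genes the cosine passed for 6.66% (control) and 11.2% (high fat). The basal markers were not flat. By the limma F test of any difference between time points all 7 passed on the control diet (43.9% of all genes). Among them were Krt14 (adjusted p = 7.70e-07, and 0.00230 on the high fat diet) and Col17a1 (0.0222 and 0.0926). The part of these marker lists in the course of the mitotic genes was not tested.

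The next question was whether the high fat diet changed the level or the course of these genes. Averaged over the time points no gene of the 9 passed (0 of 9, limma, 7.59% of all genes, and 1 of 9 at an unadjusted p under 0.05, where 24.3% of all genes lay). The differences, high fat minus control, ran from -0.07 ± 0.11 (SE, log2) for Aurkb to 0.19 ± 0.11 for Anln. All but Aurkb were above 0, with a median of 0.09 against 0.02 over all genes, though Aspm (0.01) turned to -0.02 with medians of the tested genes subtracted and Bub1 (0.05) to -0.02 with the mean of the probe sets. Aurka had the gene-wise smallest p of the 9 (0.14 ± 0.07, adjusted p = 0.202).

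Nor did any cosine differ between the diets past the threshold (0 of 9, 3.58% of all genes). At an unadjusted p under 0.05 there was 1 of 9, Plk1, where 17.5% of all genes lay. Amplitudes were lower on the high fat diet in 8 of the 9 genes. The genes share their arrays, and no share over all genes is given beside this count. The fitted differences were -0.33 ± 0.13 (SE, log2) for Aspm, -0.25 ± 0.09 for Plk1, -0.23 ± 0.14 for Cdc20 and -0.15 ± 0.13 for Aurka, the 4 genes of late peak. They lay between -0.07 ± 0.14 (Mki67) and 0.01 ± 0.22 (Aurkb) in the other 5. All of these are values of the main probe sets. The other probe sets of Aspm had amplitudes of 0.79 (control) and 0.53 (high fat), and of 1.01 and 0.97. The lower amplitude of Aspm on the high fat diet therefore depended on the probe set, with little lost on the last of them. The peaks moved by between -1.20 ± 1.62 h (Aurka) and 1.24 ± 1.58 h (Bub1).

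At single time points the differences that passed were 3 of 9 at ZT12, all higher on the high fat diet, where 13.6% of all genes were higher and 4.44% lower. At an unadjusted p under 0.05 there were 4 of 9, and 32% of all genes. Plk1 read 7.81, 7.76, 7.92 and 7.40 on the high fat diet and 7.04, 7.39 and 7.37 on the control diet, so that every high fat array was above every control array. The difference was 0.46 ± 0.14 (SE, log2, adjusted p = 0.0230). Cdc20 read 8.40, 7.77, 7.57 and 7.62 against 7.11, 7.47 and 7.30, also without overlap (0.55 ± 0.18, adjusted p = 0.0343, limma). Aspm read 6.50, 5.97, 6.11 and 5.81 against 5.87, 5.57 and 5.48, with 1 high fat array inside the control range (0.46 ± 0.15, adjusted p = 0.0324). Aurka (0.35 ± 0.17, adjusted p = 0.141) and Anln (0.47 ± 0.25, adjusted p = 0.200) did not pass, and neither did Aurkb (-0.25 ± 0.26), Bub1 (-0.22 ± 0.12) and Top2a (-0.18 ± 0.15), all below 0. High fat ZT12 replicate 1 was the highest of its group in 7 of the 9 genes, and without it 0 of the 9 passed at any time point. The number was 1 without control ZT12 replicate 1, control ZT12 replicate 3 or high fat ZT12 replicate 3. It rose to 5 when control ZT8 replicate 1 was left out. With medians of the tested genes subtracted, a scaling that moves the median of all genes at ZT12 from 0.05 to -0.01, Plk1 alone passed (adjusted p = 0.0465, against 0.0675 for Cdc20 and 0.0682 for Aspm). With the mean of its probe sets Aspm did not pass (0.26 ± 0.12, adjusted p = 0.142).

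Several marker lists also differed between the diets at ZT12. The mean of the bulge markers was 8.40 (8.28 to 8.53) on the high fat diet and 7.93 (7.92 to 7.94) on the control diet. Suprabasal (10.18 against 9.97), leukocyte (6.66 against 6.47) and hair matrix (6.38 against 6.26) means were also higher on the high fat diet, and the melanocyte mean was lower (6.29 against 6.51). In these 5 lists the arrays of the diets did not overlap. They overlapped in the basal (11.81 against 11.79), fibroblast (5.68 against 5.62), endothelial (5.68 against 5.67) and erythroid (7.38 against 7.34) lists. Between the diets 18% of all genes passed at this time point (limma), and no share of non-overlap over all genes is given. The part of these markers in the differences of Plk1, Cdc20 and Aspm was not tested.

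At the other time points 0 of 9 passed, where 0.854%, 0.386%, 8.34%, 1.24% and 0.702% of all genes passed at ZT0, ZT4, ZT8, ZT16 and ZT20 (limma). At ZT8 5.42% of all genes were higher and 2.92% lower. At an unadjusted p under 0.05 there were 0, 0, 2, 2 and 1 of the 9, against 12.9%, 11.9%, 23.3%, 16.1% and 14.8% of all genes. The larger of the ZT8 differences was that of Top2a, with 7.30 and 6.71 on the high fat diet against 6.69 and 6.15 (0.58 ± 0.20, adjusted p = 0.0587). Bub1 was next, at 5.15 and 5.33 against 5.07 and 4.61 (0.40 ± 0.16, adjusted p = 0.117). For both the ZT8 arrays of the diets did not overlap. With 2 arrays in each group such a gap arises easily for any gene, and no share over all genes is given. The nearest Top2a arrays read 6.71 (high fat) and 6.69 (control). The 7.30 was high fat replicate 1, the ZT8 array whose marker means did not stand apart, and the part of cell type was not tested.

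**Figure D3:**
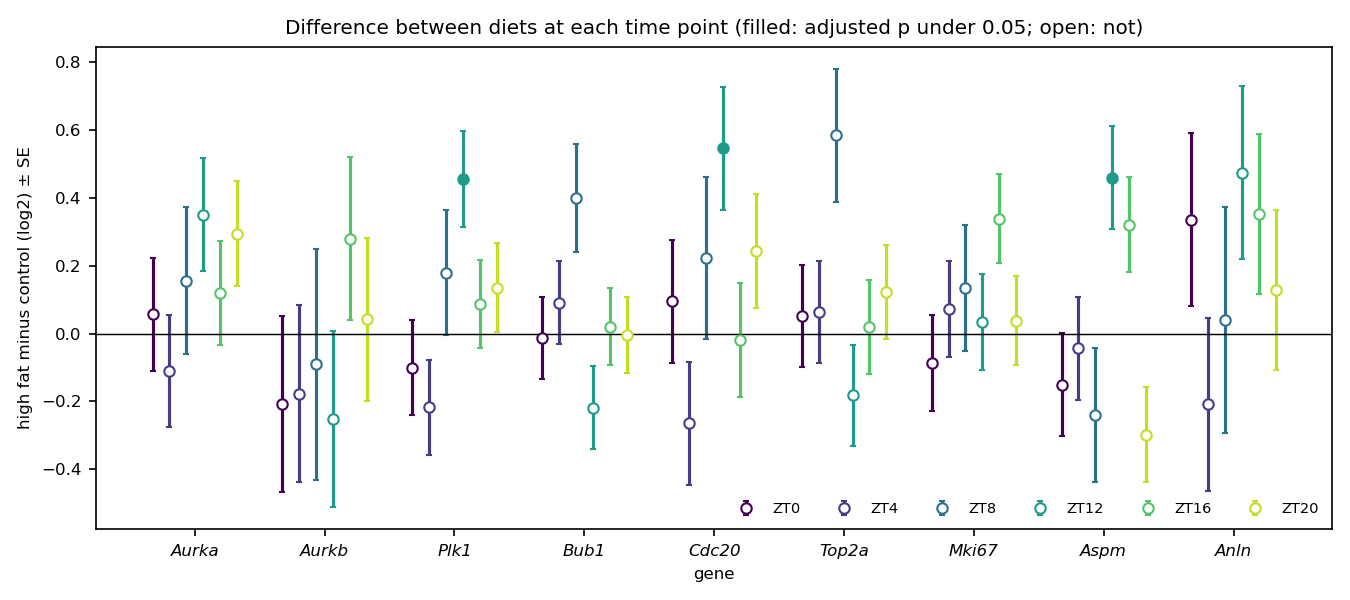
Difference between the diets (high fat minus control, log2) of each gene at each time point, with standard errors, coloured by time point. The 3 filled symbols, Plk1, Cdc20 and Aspm at ZT12 (0.46, 0.55 and 0.46), have an adjusted p under 0.05, and the open ones do not.

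Aspm, which focuses microtubules at spindle poles and whose human counterpart is a microcephaly gene, was the 1 gene of 9 whose diet effect differed between time points (adjusted p = 0.0309, limma F test, 19% of all genes). On the control diet it read 7.58, 7.80, 7.87 and 7.50 at ZT0, 7.26, 7.13 and 7.10 at ZT4, and 6.21 and 5.80 at ZT8. It then read 6.00, 6.15, 6.23 and 6.49 at ZT16 and 6.94, 6.58, 6.72 and 7.16 at ZT20. The high fat arrays read 7.36, 7.59 and 7.68 at ZT0, 7.28, 7.09, 6.79 and 7.31 at ZT4, and 5.90 and 5.64 at ZT8. They read 6.52, 6.71, 6.45 and 6.48 at ZT16 and 6.36, 6.56, 6.58 and 6.70 at ZT20. The main probe set had ranges of 4.14-fold and 3.42-fold and cosine amplitudes of 0.97 ± 0.09 and 0.64 ± 0.09. The other probe sets had amplitudes of 0.79 (control) and 0.53 (high fat), and of 1.01 and 0.97. On the main probe set the control course had its low at ZT12 and rose through ZT20. The high fat course on it had its low at ZT8, and ZT16 and ZT20 lay level (6.54 and 6.55). The difference was 0.46 at ZT12, 0.32 ± 0.14 at ZT16 and -0.30 ± 0.14 at ZT20, and the last 2 did not pass on their own (adjusted p = 0.246 and 0.312). The second probe set of Aspm gave an adjusted p of 0.0150 for the same test and the third gave 0.914. At ZT20 the second probe set ran opposite to the main one. There every high fat array (6.28 to 6.40) was above every control array (5.82 to 6.25). These high fat arrays also lay above those of ZT16 on the second probe set (5.65 to 6.21), so that stretch was not level. On the third the high fat arrays read 4.67 to 5.06 at ZT16 and 5.01 to 6.03 at ZT20. Its high fat mean at ZT12 (4.64) lay below both ZT8 arrays (5.21 and 4.94). With the mean of the probe sets the adjusted p for a diet effect that differed between time points was 0.226. The call was lost without control ZT12 replicate 2 or control ZT12 replicate 3, and 2 genes passed without high fat ZT12 replicate 4 or high fat ZT8 replicate 2.

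Other genes of mitosis, in 10 lists of 115 genes with 105 measured, were described beside the 9 with the same fit. Of the 105, 51 were rhythmic on the control diet, 47 on the high fat diet and 34 in both, with a median amplitude of 0.24 and 0.20. Over all genes 6.66% and 11.2% were rhythmic in the control and high fat diets, with a median amplitude of 0.07 and 0.08. The same shares stand beside the count of each list below. The cosine differed between diets for 2 of the 105 (Rbbp4 and Cdkn2c), where 3.58% of all genes differed. On the diet average 7 were higher and 1 was lower on the high fat diet, where 7.59% of all genes passed in either direction, a share like that of the list. The lists were chosen with results of these arrays known.

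Among 9 genes of mitotic entry, 5 were rhythmic on the control diet and 3 on the high fat diet. Cdk1, the kinase that triggers mitosis, had amplitudes of 0.64 and 0.51 and peaked at ZT21.5 and ZT22.1, and the kinase gene Melk had 0.59 and 0.43 (ZT21.2 and ZT20.9). The Cdk1-inhibiting kinase genes Pkmyt1 (0.34 and 0.25, ZT17.2 and ZT17.5) and Wee1 (0.66 and 0.47, ZT17.2 and ZT16.1) peaked earlier, with Wee1 past the threshold on the control diet (adjusted p = 0.0382, and 0.116 on the high fat diet, limma). Of 7 other mitotic kinases 5 and 5 passed. Pbk had amplitudes of 0.93 and 0.85, Plk4, the kinase of centriole duplication, 0.39 and 0.39, and the checkpoint gene Bub1b 0.44 and 0.29.

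Aurkb works in the chromosomal passenger complex. Among 8 genes of that complex and of cohesin protection, 6 and 6 were rhythmic. They included the subunit genes Cdca8 (0.98 and 0.61, peaks at ZT22.0 and ZT21.2) and Incenp (0.59 and 0.59, ZT21.7 and ZT22.5) and the cohesin regulator Cdca5 (1.10 and 0.86, ZT20.7 and ZT20.4). Around Bub1, 8 and 6 of 16 checkpoint and kinetochore genes passed. Cenpf had amplitudes of 1.07 and 0.95 and peaked at ZT0.69 and ZT23.1, Spc25 had 0.66 and 0.67, and Knl1, the kinetochore scaffold that recruits Bub1, 0.55 and 0.66. Of 12 genes around Cdc20 in the anaphase-promoting complex, 3 and 1 passed, the latter near the 11.2% of all genes on the high fat diet. Ube2c, the ubiquitin-conjugating enzyme of the complex, passed in both (0.59 and 0.55), with peaks at ZT0.61 and ZT0.23 beside those of Cdc20.

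Of 17 spindle genes 7 and 11 were rhythmic, with Nusap1 at amplitudes of 0.99 and 0.85, the motor gene Kif11 at 0.99 and 0.78 and Ckap2 at 0.47 and 0.44. Of 9 cytokinesis genes 6 and 5 passed, among them Racgap1 (0.94 and 0.73), Ect2 (0.54 and 0.65) and Prc1, which bundles microtubules of the midzone (0.65 and 0.49). Condensin and chromosome structure genes passed for 5 and 4 of 10, with Ncapg at 0.44 and 0.72, Ncapd2 at 0.39 and 0.35 and Smc4 at 0.29 and 0.32.

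Of 13 genes that control transcription of mitotic genes 5 passed in each diet. Foxm1, an activator of the G2 programme, had amplitudes of 0.24 (adjusted p = 0.0719) and 0.41 (adjusted p = 0.000541, limma) and peaked at ZT22.2 and ZT22.1. Mybl2 had 0.36 (0.0693) and 0.41 (0.0189), with peaks at ZT12.2 and ZT16.8. E2f1, the activator of the G1/S programme, passed in both diets (0.31 and 0.33) and peaked at ZT13.7 and ZT13.8. Lin9, a subunit of the complex that binds the TTTGAA element, peaked at ZT15.8 and ZT16.8 (0.48 and 0.44), and Rbbp4 had 0.20 and 0.19. Of the 4 CDK inhibitor genes 1 passed in each diet, Cdkn2c on the control diet (0.22) and Cdkn1a, named after its value was seen, on the high fat diet (0.15). Of 8 replication licensing genes, which load the helicase before S phase, 7 and 8 passed. For Mcm2, Mcm5 and Cdt1 the peaks were ZT16.3, ZT16.4 and ZT15.8 on the control diet and ZT13.2, ZT14.1 and ZT15.0 on the high fat diet. The cosine differed between the diets for Mcm2 (limma, adjusted p = 0.0354) and not past the threshold for Mcm5 (0.332) and Cdt1 (0.737).

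**Figure D4:**
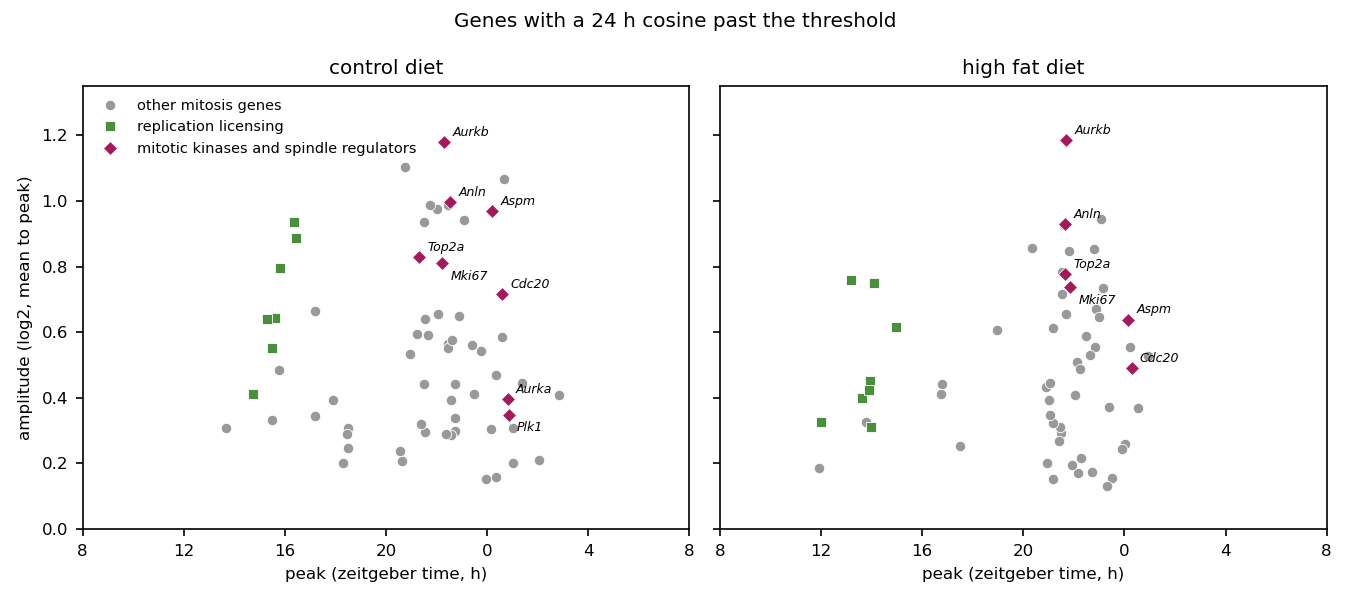
Amplitude (log2, mean to peak) against peak time (zeitgeber hours) for genes whose 24 h cosine passed, in the control diet (left) and the high fat diet (right). Diamonds are the mitotic kinases and spindle regulators, grey circles other mitosis genes (CDK inhibitors left out) and green squares replication licensing genes. The diamonds lie between ZT21.3 and ZT0.85, and the licensing genes Mcm2, Mcm5 and Cdt1 between ZT13.2 and ZT16.4. The earliest square is Mcm7, at ZT12.0 on the high fat diet.

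In some groups an array was high or low for most of the 9 genes together. At ZT4 on the control diet replicate 1 was highest for 8 genes and replicate 2 lowest for 8. At ZT8 replicate 1 was highest for 8 genes on the control diet and for 7 on the high fat diet, out of 2 arrays each. High fat ZT20 replicate 1 was highest for 6 genes and replicate 2 lowest for 6. Other groups showed less of this, as at control ZT12 and ZT20, where the array most often highest was so for 3 genes. No share over all genes is given beside these counts. The median SD within a group was between 0.13 (high fat ZT0) and 0.32 (control ZT8).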

How the data were processed

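Per the submitters' processing notes, the authors normalized the arrays by RMA. The deposited values, between 2.17 and 13.5, are taken to be log2. The RMA version was not given in the sources used here. RNA was amplified before labelling, per the labels' protocols. Array medians lay between 6.41 and 6.44 and correlations between arrays from 0.938 to 0.995. Of 45141 probe sets, 28898 had 1 gene in the platform annotation, 551 with several were left out, and symbols were updated through Entrez identifiers (17055 of 17097 are in the reference table). Precision is limited by how many arrays each group has.

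Models were fitted by limma 3.58.1 (R 4.3.3), with a mean for each of 12 groups (29 residual degrees of freedom) or a 24 h cosine per diet (35), over all arrays and genes, with Benjamini-Hochberg adjustment and calls at 0.05. Dim genes were kept. Scripts were tested on simulated data. Figures used matplotlib 3.10.9 in Python 3.11.15. All 9 genes were named, with up to 3 genes of each list by amplitude among those rhythmic in both diets, or the 1 of largest amplitude, and Wee1, Foxm1 and Mybl2. The 10 genes most like the mean course were named too. Members and lists were chosen with earlier results of these data known. Other settings tried were averaging the probe sets of a gene, a filter on dim genes, other scalings, array weights, a trended and robust eBayes step, an added 12 h harmonic, blocks for replicate number or time point, and leaving out arrays or time points.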

Additional observations from a re-analysis of the deposited data

Results flagged for a closer look

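Of 63 sets of 4 arrays (9 genes, the groups with 4 arrays), 5 held an array far from the other 3, where chance flags about 1 in 20. In high fat ZT16 replicate 1, Aurkb read 6.75 with the next array at 7.66, and Mki67 read 8.51 with the next at 8.97. In high fat ZT20 replicate 2, Aurkb read 7.63 with the next at 8.41, and Anln read 6.93 with the next at 7.89. The mean of 6 fibroblast markers was 6.18 on that array and at most 5.83 on the others, and its part in these values was not tested. In high fat ZT20 replicate 1, Bub1 read 5.54 with the next at 5.28.

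The diet effect on Aspm differed between time points (limma, adjusted p = 0.0309), in 1 of 9 genes against 19% of all genes. From ZT0 to ZT20 the differences, high fat minus control, were -0.15, -0.04, -0.24, 0.46, 0.32 and -0.30 (log2). The adjusted p was 0.226 with the mean of the probe sets and 0.914 on the third probe set, and 0 genes passed without control ZT12 replicate 2 or control ZT12 replicate 3. On the second probe set the ZT20 difference had the other sign, with every high fat array above every control array.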

How the results depend on the processing

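The number of rhythmic genes was 8 or 9 on the control diet and 6 to 8 on the high fat diet under the alternatives run, apart from 6 and 5 with the random block. Leaving out single arrays gave 8 to 9 and 6 to 7 rhythmic genes, 9 and 8 genes that differed between time points, 21 to 27 and 17 to 24 steps, 0 to 5 diet differences at single time points and 0 to 2 diet effects that differed between time points. The 5 were reached without control ZT8 replicate 1. No array left out gave a diet average or a cosine difference past the threshold. Steps on the control diet were 15 without ZT8 and 13 without ZT8 and ZT12, and 13 on the high fat diet without both, since fewer steps were counted. Without ZT12, or ZT8 and ZT12, the diet differences at single time points were 0 and the diet effects that differed between time points 0, the latter also 0 with the mean of the probe sets. With medians of the tested genes subtracted the diet differences at single time points were 1. Leaving out both times, and this scaling, were chosen after seeing the data. With both times left out the Mki67 cosine on the high fat diet did not pass (limma, adjusted p = 0.142). Samples of 1 replicate number did not deviate together (median correlation -0.03 over 198 pairs), and with a replicate block 8 and 6 genes were rhythmic, with 24 and 22 steps, 3 diet differences and 1 differing diet effect. Of 232 amplitudes, which cannot be negative, 4 lost and 5 gained a call. With the mean of the probe sets Top2a fell to 0.28 and 0.25 and Anln to 0.58 and 0.56. Of 98 diet averages, none past the threshold, 6 had the other sign, for Bub1, Aspm and Plk1. Bub1 passed the cosine on the control diet with the mean of the probe sets (adjusted p = 0.0470), without ZT12 (0.0130) and without ZT8 and ZT12 (0.00219), and on the high fat diet without ZT8 (0.0107) and without both (0.00648).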

Other observations

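Over the 12 group means, the genes outside the set whose course was most like the mean course of the 9, each first centred and scaled, were led by mitosis genes. Prc1 had a Pearson r of 0.99, the S and M phase cyclin gene Ccna2 0.96, Cdca3, which promotes mitotic entry, 0.96, the cytokinesis genes Racgap1 and Cep55 0.96 each, and Birc5, the survivin subunit of the passenger complex, 0.93. Also among the 10 were Npas2 (0.96), the partner of BMAL1 in the circadian clock, the glycogen phosphorylase gene Pygl (0.95), the actin-binding coronin gene Coro1c (0.95) and Ttc9 (0.95). Npas2 had a cosine amplitude of 0.46 on the control diet and 0.31 on the high fat diet, with peaks at ZT23.6 and ZT21.9. Without the ZT8 arrays its r was 0.93, and within the control and high fat diets 0.95 and 0.97. For Ttc9 these were 0.95, 0.98 and 0.91, and for Pygl 0.92, 0.99 and 0.91. With the mean of the probe sets r fell to 0.86 for Coro1c and was at least 0.93 for the other 9 genes. Of 15516 genes compared, 23 had an r above 0.9, and the median r was 0.07. The genes were picked for these values, the points share their arrays, and no test was made.

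The members differed in r with their own mean course, from 0.58 for Bub1 and 0.85 for Plk1 to 0.96 for Anln. In the mean course the group lowest of all was control ZT8 and the highest control ZT0.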
